A study of Mus musculus with 43 samples.

Results

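The leptin-to-adiponectin ratio, taken as the read count of Lep divided by that of Adipoq, was used to rank 33 of 43 RNA-seq libraries of mouse epididymal white adipose tissue. The 11 libraries with the highest ratio (high class) were compared with the 11 with the lowest (low class) across all other genes, and the remaining 11 formed a middle class. The tissue is the visceral fat pad beside the epididymis, taken from male mice. The diet of all 33 ranked libraries held 60% fat. These were 10 libraries of the HFD group, 9 of SZ-A 200, 6 of SZ-A 400 and 8 of SZ-A 600. SZ-A stands for the alkaloids of Ramulus Mori (Sangzhi), a mulberry twig drug, given with the high-fat diet at 200, 400 or 600 mg/kg/day. The SD diet, with 10% fat, gave 7 libraries that were not ranked. SZ-A 400 libraries 3 and 6 and SZ-A 600 library 6, in which markers of ciliated and duct epithelium summed to 10410, 27602 and 1254 CPM, were left out of the ranking. The labels call the libraries replicate biosamples and name no animals, so a p-value sets a difference against the spread of libraries, which may be technical. Libraries were ranked by a measured value and not assigned to a class by treatment, so a called gene is associated with the ratio. Treatment and class are partly joined, as given below.

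Leptin and adiponectin are hormones that fat cells release into the blood. Leptin reports the size of the fat store to the hypothalamus and restrains feeding, and its gene is more active in large, lipid-filled adipocytes. Adiponectin raises insulin sensitivity in liver and muscle, and its level falls in obesity. The ratio of the circulating hormones is used as a marker of adipose tissue dysfunction. Macrophages gather around dying adipocytes in the fat of obese mice, and a subset that takes up their lipid carries TREM2, CD9 and CD11c.

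The promoters of the numerator and the denominator are shown because their counts form the ratio that chose the classes. Each sequence is in RefSeq build GRCm38.p6, on the plus strand, from 250 bases before the transcription start to 50 after it. The Lep window is chr6:29059971-29060270 and the Adipoq window is chr16:23146286-23146585. Capitals mark matches to 4 motifs chosen after the sequences were read, searched on both strands.
Lep promoter: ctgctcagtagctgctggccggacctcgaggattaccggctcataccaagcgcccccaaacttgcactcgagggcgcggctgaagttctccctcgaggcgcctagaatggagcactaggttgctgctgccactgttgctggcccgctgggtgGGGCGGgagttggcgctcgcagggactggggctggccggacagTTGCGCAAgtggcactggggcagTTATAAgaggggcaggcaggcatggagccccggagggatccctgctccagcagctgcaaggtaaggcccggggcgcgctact
Adipoq promoter: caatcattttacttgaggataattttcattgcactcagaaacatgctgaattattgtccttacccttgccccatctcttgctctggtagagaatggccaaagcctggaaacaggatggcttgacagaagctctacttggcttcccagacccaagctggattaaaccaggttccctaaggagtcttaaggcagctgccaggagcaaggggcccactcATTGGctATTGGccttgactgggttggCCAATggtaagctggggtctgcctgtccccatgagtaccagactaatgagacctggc
In the Lep window, GGGCGG, the core of the Sp1 box, began 98 bases before the start. The palindrome TTGCGCAA, a consensus of C/EBP factors, began 55 bases before it. TATAA was read on opposite strands at 32 and 31 bases before it, the matches overlapping. In the Adipoq window, CCAAT began 34, 27 and 7 bases before the start, the first 2 matches on the opposite strand, and the other 3 motifs were not found. Over 27025 mouse promoter windows of the same length, TATAA was found in 25.52%, CCAAT in 37.92%, GGGCGG in 35.91% and TTGCGCAA in 0.185%. A match is a description of these letters and no measure of binding.

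The ratio ran from 0.0795 in SZ-A 400 library 7 (8410 Lep and 105746 Adipoq counts) to 2.47 in HFD library 6 (80153 and 32406 counts), a 31.1-fold span. It was 1.14 to 2.47 in the high class (median 1.36), 0.433 to 1.08 in the middle class (median 0.693) and 0.0795 to 0.419 in the low class (median 0.246). These values chose the classes and are given with no test. The thresholds fell within narrow gaps: the last library of the high class, SZ-A 400 library 8, had 1.14 and the first of the middle, SZ-A 200 library 4, had 1.08. At the lower threshold, SZ-A 200 library 1 in the middle class had 0.433 and SZ-A 400 library 1 in the low class had 0.419. The ratio is of counts and is not corrected for gene length. With the lengths in the files, 3354 bases for Lep and 1381 for Adipoq, the ratio per length was 0.412 of the count ratio, and the rank was the same in 33 of 33 libraries.

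**Figure D1:**
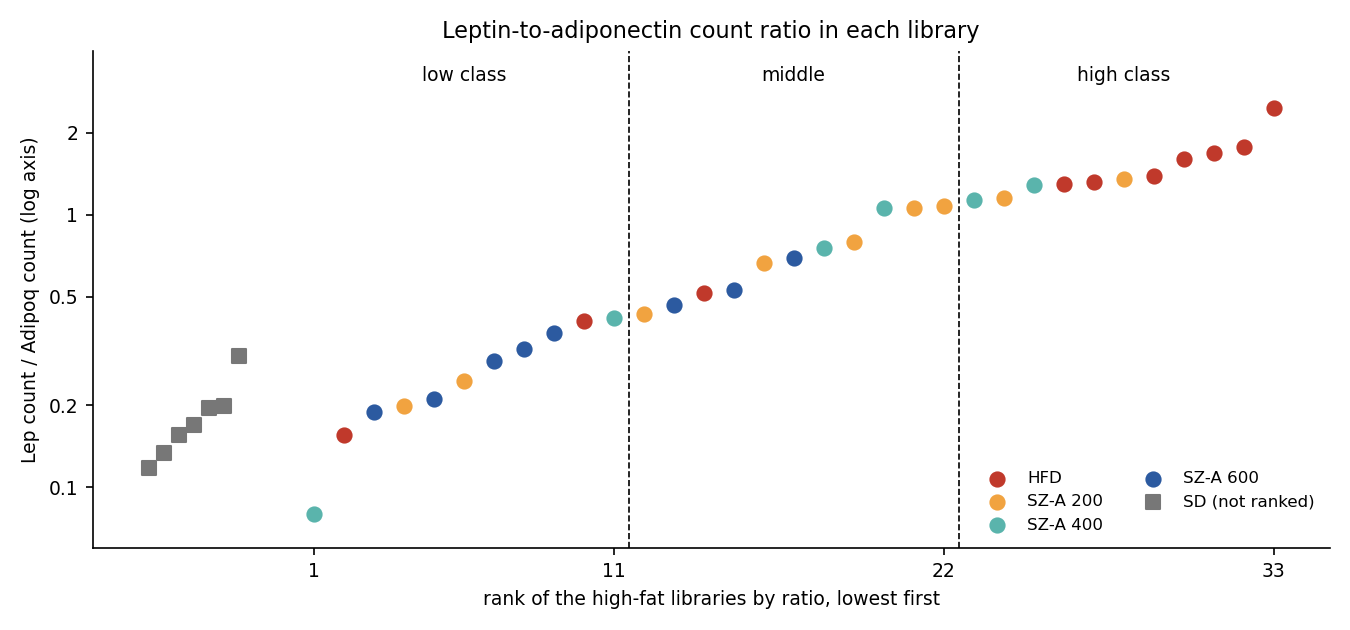
Lep count divided by Adipoq count (log axis) in each library, ordered by rank in the 33 high-fat libraries, with the 7 SD libraries as squares at the left. Dashed lines mark the thresholds between the classes; the high class holds 7 HFD libraries and the low class holds 5 SZ-A 600 libraries.

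Gene levels are normalised CPM, read counts scaled to the library total with TMM factors. Lep ranged over 203 to 2026 CPM (median 1033) in the low, 1322 to 2554 CPM (median 2109) in the middle and 1199.7 to 2746 CPM (median 1879.8) in the high class. Adipoq ranged over 2549.8 to 5404 CPM (median 3553) in the low, 1249 to 5152 CPM (median 2556) in the middle and 760.0 to 1861 CPM (median 1499) in the high class. Adipoq separated the low from the high class with no overlap, whereas the Lep level of the middle class lay as high as that of the high class. Across the 33 libraries the log2 CPM of the library total had an SD of 0.749 for Lep and 0.732 for Adipoq, and the log2 ratio had an SD of 1.20. Both terms therefore spread to a like extent, and the highest CPM of Lep was 11.4 times the lowest, against 5.69 times for Adipoq.

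**Figure D2:**
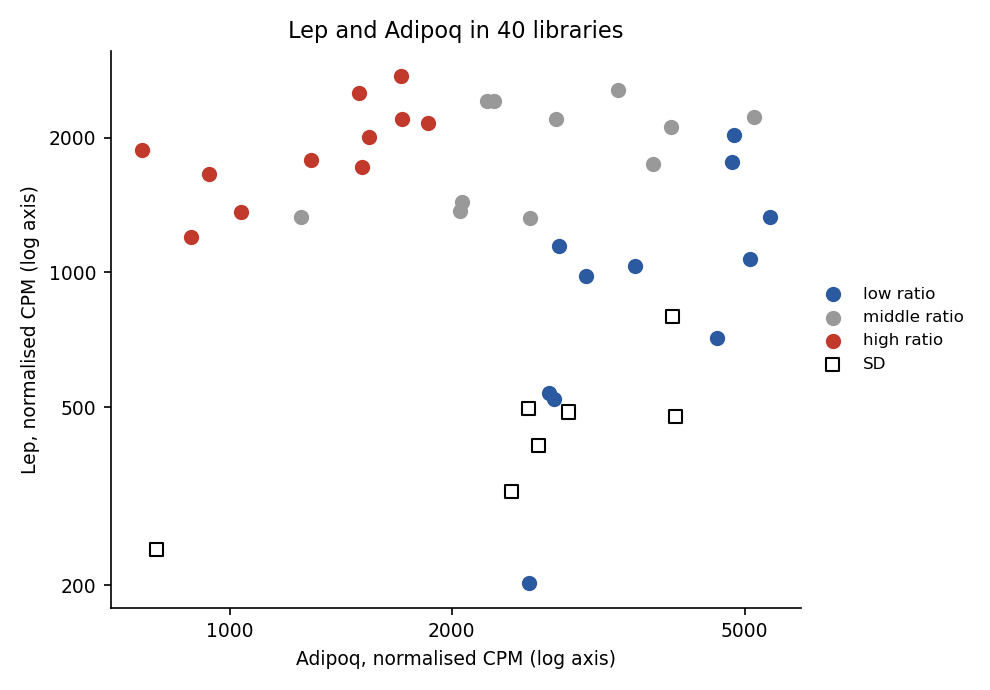
Lep against Adipoq in normalised CPM (log axes), 1 point per library, for the 33 ranked libraries by ratio class and the 7 SD libraries. Adipoq is at most 1861 CPM in the high class and at least 2549.8 CPM in the low class; Lep is lowest in SZ-A 400 library 7, at 203 CPM.

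The labelled groups were spread unevenly over the classes. The high class held 7 HFD, 2 SZ-A 200, 2 SZ-A 400 and 0 SZ-A 600 libraries. The low class held 2 HFD, 2 SZ-A 200, 2 SZ-A 400 and 5 SZ-A 600 libraries, and the middle held 1, 5, 2 and 3. By group, the ratio was 0.156 to 2.47 in HFD (median 1.35), and HFD libraries 8, 9 and 10, at 0.156, 0.408 and 0.517, stood below the other 7. SZ-A 600 libraries lay between 0.189 and 0.693. SD libraries lay between 0.118 and 0.303, inside the range of the low class. The labelled treatment and the class are thus partly joined, and fits with the group as a further term or without HFD are given beside the main counts.

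Total counts per library were 34374107 to 44259619 in the high class and 33376996 to 43814042 in the low class. Libraries also fell into 2 sets that follow the library numbers in 43 of 43 libraries: set 1, with 0.00319% to 0.00642% of counts on small noncoding RNA genes, and set 2, with 0.00992% to 0.0228%. The labels do not name such sets. The high class held 7 libraries of set 1 and 4 of set 2, the low class 5 and 6, and set was a term in every main fit. Markers of mature adipocytes, 21 genes other than Lep and Adipoq, summed to 28330 to 49559 CPM of the library total in the high class and to 51887 to 81089 CPM in the low class, which did not overlap. Markers of macrophages, 20 genes, summed to 1912 to 15803 CPM (median 12729) in the high and 1121 to 8197 CPM (median 2582) in the low class. In 10 of 11 high-class libraries the sum exceeded that of every low-class library; the exception, SZ-A 400 library 8, had 1912 CPM. In the low class, SZ-A 600 library 1 (8197 CPM) and HFD library 9 (4371 CPM) had the highest sums, and HFD library 8 had the lowest of the 33. Ciliated and duct epithelium markers summed to at most 19.1 CPM in both classes. In bulk tissue, fewer cells of a type and less RNA per cell cannot be told apart.

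**Figure D3:**
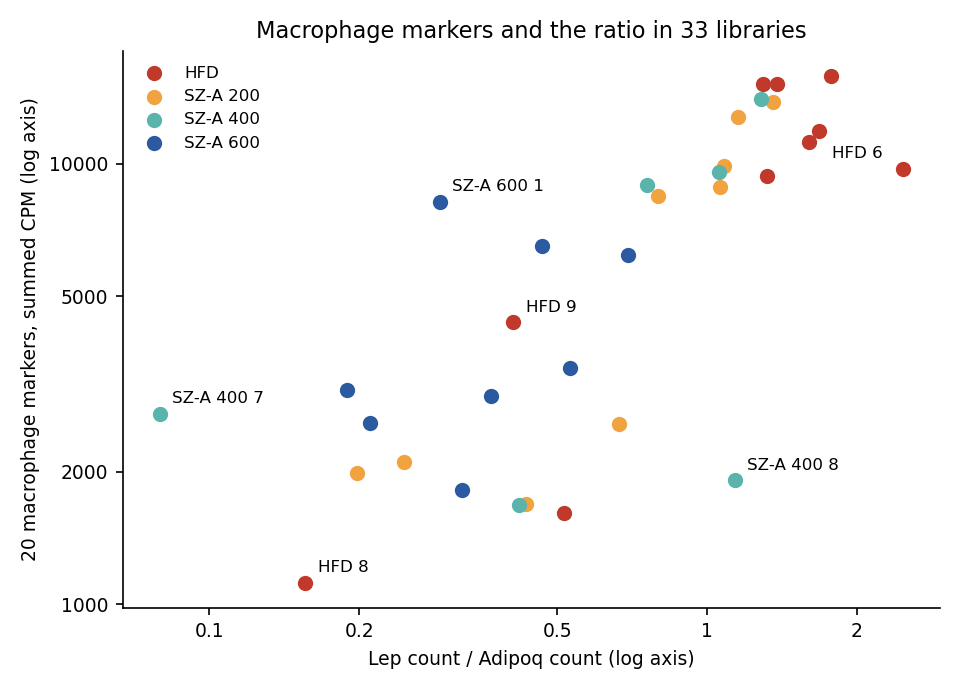
Summed CPM of 20 macrophage markers against the Lep to Adipoq count ratio (log axes) in the 33 ranked libraries, coloured by group. The sum is 9399 CPM or more in 10 high-class libraries and 1912 CPM in SZ-A 400 library 8, the eleventh.

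Of 18241 genes tested with edgeR's quasi-likelihood test, 4797 (26.3%) were higher and 5194 (28.5%) lower in the high class at a Benjamini-Hochberg adjusted p under 0.05. Differences of at least 2-fold were called for 1867 genes higher (10.2%) and 1365 lower (7.48%). All 11 libraries of each class lay apart for 156 genes higher (0.855%) and 236 lower (1.29%). Since 54.8% of tested genes were called, a list of genes has to be read against that background. The median log2 difference over all tested genes was -0.05. Within set 1 alone 4371 genes were higher (24.2%) and 4433 lower (24.6%), and within set 2 alone 2410 (12.4%) and 1844 (9.46%). In set 1 the high class held 5 HFD libraries and the low class 0, and in set 2 each class held 2. Class and labelled group are thus more closely joined in set 1, and the 2 sets are not like repeats. A test of the difference between sets called 0 genes (0.0%) with edgeR, with 1773 at an unadjusted p under 0.05. With the labelled group as a further term, 4081 genes were higher (22.4%) and 4299 lower (23.6%). With the HFD group left out, 4 high-class and 9 low-class libraries remained, and 2913 genes were higher (14.7%) and 2366 lower (11.9%).

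With the mean log2 CPM of the 20 macrophage markers as a further term, 547 genes were higher (3.0%) and 663 lower (3.63%), of which 504 and 645 were among those called without it. This score and the ratio class move together, and list counts with the term are given in brackets, as higher and lower, beside those without it. C1qa, C1qb and C1qc of the complement list and Ctss of the MHC class II list are among the 20 markers. Their differences with the term are thus not independent of the score. The part of macrophages in the other differences was not tested.

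Genes of the adipocyte were lower in the high class. Adipoq, the denominator of the ratio, is itself an adipocyte gene and was lower there with no overlap. The ranking is thus not independent of the amount of adipocyte RNA. Lower levels of other adipocyte genes, here and below, are a description of the ranked classes. Beside each difference, the number of libraries apart is the number of the 11 high-class libraries that lay beyond every low-class library. Of 21 mature adipocyte markers, 16 were lower and 0 higher (median log2 difference -1.17), and 0 higher and 11 lower with the macrophage term. Pck1, which makes glycerol phosphate for triglyceride storage, ranged over 3461 to 6104 CPM (median 4814) in the low class and 345 to 1928 CPM (median 621) in the high class. Every high-class library lay below every low-class one (log2 difference -2.75, SE 0.25, adjusted p = 1.05e-08, 11 of 11 libraries apart), and the difference was -1.71 with the macrophage term (adjusted p = 2.38e-06). Adrb3, the beta-3 adrenergic receptor that triggers lipolysis in rodent fat, ranged over 222 to 1976 CPM (median 609) in the low class and 30.1 to 171 CPM (median 58.4) in the high class. HFD library 8 had the highest level and every high-class library lay below every low-class one (log2 difference -3.01, SE 0.31, adjusted p = 2.82e-08, 11 of 11 libraries apart). Retn, the gene of the adipokine resistin, ranged over 405 to 1358 CPM (median 794) in the low class and 67.5 to 332 CPM (median 165) in the high class, again with no overlap (log2 difference -2.42, SE 0.28, adjusted p = 8.3e-08, 11 of 11 libraries apart). Cfd, which encodes the adipocyte protease adipsin of the complement system, ranged over 2275 to 12903 CPM (median 4794) in the low class and 209 to 2865 CPM (median 409) in the high class (log2 difference -3.20, SE 0.43, adjusted p = 4.79e-07, 10 of 11 libraries apart). In Cfd, SZ-A 400 library 8 alone among the high class reached into the low class. Aqp7, the glycerol channel, differed by -1.13 (adjusted p = 6.97e-08). The transcription factors of adipocyte identity were lower by less: Cebpa by -0.81 (adjusted p = 1.82e-07), and Pparg, with overlap in 5 of 11 libraries, by -0.81 (adjusted p = 0.000165). Of 16 adipogenic transcription factors 12 were lower and 0 higher (0 higher and 2 lower with the macrophage term).

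The largest fitted falls, chosen by a rule on size and separation, included Acsm3, a mitochondrial medium-chain acyl-CoA synthetase, with 2.71 to 36.3 CPM (median 16.6) in the low class and 0.305 to 2.13 CPM (median 0.633) in the high class (log2 difference -4.29, SE 0.50, adjusted p = 1.01e-07, 11 of 11 libraries apart). Cyp2e1, a cytochrome P450, had 272 to 5322 CPM (median 2139.6) in the low class and 39.0 to 449 CPM (median 115) in the high class (log2 difference -3.73, SE 0.52, adjusted p = 7.87e-07, 10 of 11 libraries apart). Fam13a, a gene linked to fat distribution in human genetic studies, had 89.9 to 620.1 CPM (median 262) in the low class and 17.2 to 124 CPM (median 30.9) in the high class (log2 difference -3.04, SE 0.41, adjusted p = 4.99e-07, 10 of 11 libraries apart). All 3 were lower in set 1 and in set 2 and were also called with the macrophage term (-2.25, -1.65 and -1.11). The rule also named Mrgprg, Prss51, Ripk4, Aard and Prss55, whose median in the high class was under 0.6 CPM.

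Genes of lipid handling moved with the markers. Of 15 genes of lipolysis and its receptors 12 were lower and 0 higher (median -1.29; 0 higher and 8 lower with the macrophage term). Lipe and Pnpla2, the hormone-sensitive and adipose triglyceride lipases, differed by -1.29 (adjusted p = 1.71e-07) and by -1.32 (adjusted p = 2.02e-07), and neither overlapped between the classes. Hcar1, the lactate receptor that restrains lipolysis, had 113 to 203 CPM (median 146) in the low class and 35.8 to 98.5 CPM (median 53.4) in the high class (log2 difference -1.47, SE 0.16, adjusted p = 4.53e-08, 11 of 11 libraries apart). Of 18 genes of triglyceride synthesis and the lipid droplet 12 were lower and 1 higher (0 higher and 7 lower with the macrophage term). Dgat1, which joins the last fatty acid to the glyceride, differed by -1.15 (adjusted p = 9.61e-08), Fitm2, which helps lipid droplets form, by -1.22 (adjusted p = 1.33e-07), and Mogat1, a monoacylglycerol acyltransferase, by -2.23 (adjusted p = 1.74e-07). The gene higher in the list was Plin2, a droplet coat protein that foam cells also carry, with 433 to 1725 CPM (median 747) in the low class and 442 to 2909.8 CPM (median 2272) in the high class (log2 difference 1.17, SE 0.22, adjusted p = 3.92e-05, 8 of 11 libraries apart). Its difference turned to -0.07 with the macrophage term (adjusted p = 0.781).

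Among genes of fatty acid synthesis more were lower than higher. Of 15 genes of de novo lipogenesis 3 were higher and 7 lower (1 higher and 2 lower with the macrophage term). These are 20% and 46.7% of the list, against 26.3% higher and 28.5% lower of all genes. Thrsp, a lipogenic regulator, differed by -1.57 (adjusted p = 3.16e-07), Srebf1, the transcription factor that drives the pathway, by -0.82 (adjusted p = 6.63e-07), and Acaca, which makes malonyl-CoA, by -1.14 (adjusted p = 1.45e-06). Acly, which makes cytosolic acetyl-CoA, had 83.5 to 145 CPM (median 127) in the low class and 147 to 248 CPM (median 182) in the high class, with every high-class library above every low-class one (log2 difference 0.56, SE 0.09, adjusted p = 4.59e-06, 11 of 11 libraries apart). Scd1, the delta-9 desaturase, had 28822 to 75539.9 CPM (median 43361) in the low class and 8564 to 45088 CPM (median 12034) in the high class (log2 difference -1.68, SE 0.27, adjusted p = 6.4e-06, 10 of 11 libraries apart), and SZ-A 400 library 8 held the highest level of the high class. Fasn, the fatty acid synthase, had 498 to 1488 CPM (median 932) in the low class and 684 to 2315 CPM (median 1105) in the high class and was not called (log2 difference 0.17, SE 0.21, adjusted p = 0.5).

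Of 19 genes of insulin signalling and glucose uptake 12 were lower and 4 higher (median -0.64; 0 higher and 2 lower with the macrophage term). Akt2, the kinase isoform that carries the insulin signal to glucose uptake, had 403 to 617 CPM (median 534) in the low class and 212 to 323 CPM (median 281) in the high class (log2 difference -1.04, SE 0.11, adjusted p = 4.38e-08, 11 of 11 libraries apart). Its relative Akt1 was higher, by 0.52 (adjusted p = 1.11e-06). Pde3b, through which insulin restrains lipolysis, differed by -1.47 (adjusted p = 2.42e-07), the glucose transporter gene Slc2a4 by -1.17 (adjusted p = 1.2e-06), and the insulin receptor gene Insr by -0.92 (adjusted p = 6.1e-06). With the macrophage term Akt2 and Pde3b were still called (-0.50 and -0.58) and Insr was not (-0.25, adjusted p = 0.268).

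Genes around the hormones themselves were described from lists of receptors, assembly factors and other adipokines. Adipor2, an adiponectin receptor, had 689.8 to 1324 CPM (median 997) in the low class and 305 to 732 CPM (median 365) in the high class (log2 difference -1.29, SE 0.16, adjusted p = 1.73e-07, 10 of 11 libraries apart). Gstk1, which helps adiponectin assemble into multimers, differed by -0.98 (adjusted p = 1.8e-07), and Ero1b, an oxidase of the endoplasmic reticulum, by 1.02 (adjusted p = 4.06e-05). Cdh13, which encodes T-cadherin, a binding partner of adiponectin, differed by -0.66 (adjusted p = 0.00461), but was not called within set 2 (-0.33, adjusted p = 0.458). In all, 3 of 7 genes of this list were lower and 2 higher (0 higher and 2 lower with the macrophage term). These are 42.9% lower and 28.6% higher, against 28.5% and 26.3% of all genes. Of 7 genes of leptin receptor signalling 2 were higher and 0 lower (0 higher and 0 lower with the macrophage term). That is 28.6% of the list, near the 26.3% of all genes. They were Ptpn1 (log2 difference 1.00, adjusted p = 1.08e-05) and Socs3 (log2 difference 0.77, adjusted p = 0.0149), both known inhibitors of the receptor's signal. Socs3 was at 0.19 with the group term (adjusted p = 0.588). The receptor gene Lepr was low throughout, at 1.38 to 4.41 CPM (median 3.38) in the low class and 1.01 to 5.42 CPM (median 4.59) in the high class, and was not called (log2 difference 0.28, SE 0.24, adjusted p = 0.344). Among 16 other adipokines and secreted proteins 7 were lower and 5 higher (0 higher and 5 lower with the macrophage term, 2 and 6 without the HFD group). These are 43.75% lower and 31.25% higher, against 28.5% and 26.3% of all genes. Rbp4, the retinol carrier, had 353 to 971 CPM (median 628) in the low class and 100.1 to 333 CPM (median 211) in the high class (log2 difference -1.78, SE 0.22, adjusted p = 1.91e-07, 11 of 11 libraries apart).

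Of 11 genes tied to adipocyte growth and caveolae 1 was higher and 3 lower (0 higher and 0 lower with the macrophage term). The share lower, 27.3%, was near the 28.5% of all genes, and in set 2 alone 0 were higher and 0 lower (median 0.17). Mest, an expansion marker, had 191 to 838 CPM (median 401) in the low class and 209 to 640.0 CPM (median 347) in the high class (log2 difference -0.19, SE 0.23, adjusted p = 0.488). Sfrp5, a secreted Wnt inhibitor, differed by -0.41 (adjusted p = 0.111), and Npr3, the natriuretic peptide clearance receptor, by -0.28 (adjusted p = 0.231), neither called. All 3 had a positive difference within set 2 (0.28, 0.06 and 0.38) and a negative one within set 1 (-0.55, -0.78 and -0.80), with 0 genes called for a difference between sets. Cavin2, a caveolar coat protein, was lower (log2 difference -0.93, adjusted p = 4.02e-06).

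**Figure D4:**
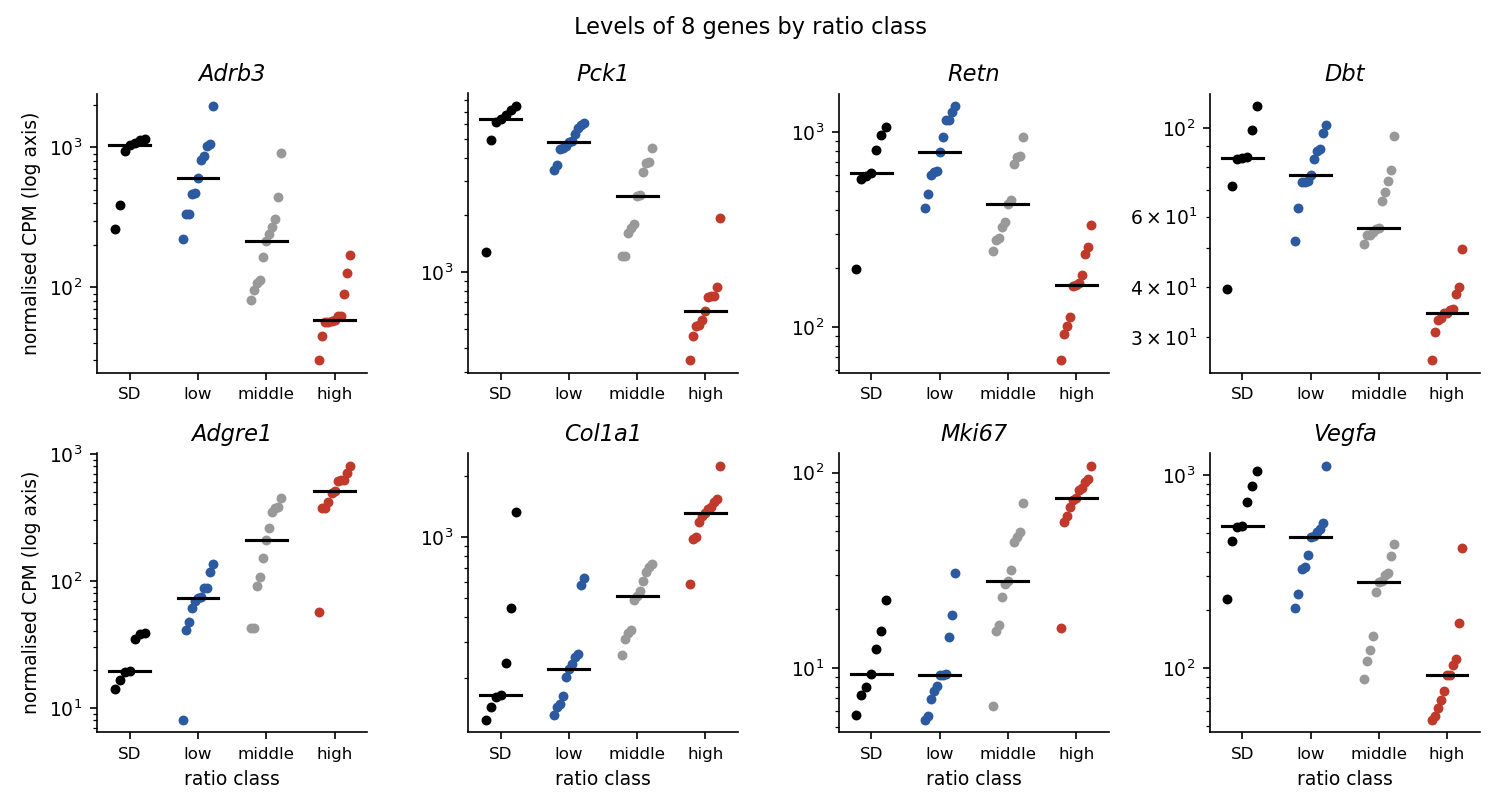
Normalised CPM (log axes) of 8 genes in each library of the SD group and of the low, middle and high ratio classes, with a bar at the median. Adrb3, Pck1, Retn and Dbt do not overlap between the low and high class; in Adgre1, Col1a1, Mki67 and Vegfa 10 of 11 high-class libraries lie beyond the low class.

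Genes for breakdown of the branched-chain amino acids leucine, isoleucine and valine, which adipocytes carry out in their mitochondria, were lower in the high class. The breakdown itself was not measured. Of 23 genes 22 were lower and 0 higher (median -0.95), and in 11 the classes did not overlap. Of all genes tested 28.5% were lower, and 1.29% were lower with no overlap. With the macrophage term 14 were still lower. Dbt, the E2 core of the branched-chain ketoacid dehydrogenase, had 52.2 to 102 CPM (median 76.3) in the low class and 26.3 to 49.8 CPM (median 34.5) in the high class (log2 difference -1.21, SE 0.12, adjusted p = 1.18e-08, 11 of 11 libraries apart). Mccc2, of leucine breakdown, had 57.9 to 107 CPM (median 78.6) in the low class and 30.2 to 54.6 CPM (median 37.6) in the high class (log2 difference -1.04, SE 0.10, adjusted p = 1.48e-08, 11 of 11 libraries apart). Hibch and Hibadh, successive enzymes of valine breakdown, differed by -1.44 (adjusted p = 1.73e-08) and by -1.19 (adjusted p = 1.52e-08). Of 29 nuclear genes of the respiratory chain 27 were lower and 0 higher, by less (median -0.50; 0 higher and 5 lower with the macrophage term). Ndufs7, a complex I subunit, differed by -0.78 (adjusted p = 3.17e-07) and Uqcrfs1, the Rieske protein of complex III, by -0.64 (adjusted p = 5.17e-07). All 13 protein genes of the mitochondrial genome, a list added after values were seen, were lower (median -1.48), 2 of them with the macrophage term. Mitochondrial genome reads took 1.92% to 3.57% of counts in the high class and 4.29% to 11.4% in the low class, with no overlap; HFD library 8 had 11.4%.

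Immune genes were higher in the high class. All 20 macrophage markers were called higher (median 1.76). Adgre1, which encodes F4/80, had 8.08 to 135 CPM (median 73.2) in the low class and 56.4 to 806 CPM (median 513) in the high class (log2 difference 2.58, SE 0.40, adjusted p = 3.36e-06, 10 of 11 libraries apart). Only SZ-A 400 library 8, with 56.4 CPM, lay within the low class, and HFD library 8, with 8.08 CPM, was the lowest. Csf1r, the receptor for the macrophage growth factor CSF1, had 92.4 to 366 CPM (median 148) in the low class and 147 to 954 CPM (median 717) in the high class (log2 difference 1.81, SE 0.24, adjusted p = 3.74e-07, 10 of 11 libraries apart). Fcgr1, the high-affinity IgG receptor, differed by 2.51 (adjusted p = 1.66e-06). All 17 lipid-associated macrophage genes were higher (median 1.82). Trem2, the lipid-sensing receptor of these cells, had 8.05 to 362 CPM (median 79.0) in the low class and 44.3 to 667 CPM (median 555) in the high class (log2 difference 1.91, SE 0.49, adjusted p = 0.00144, 8 of 11 libraries apart), and Itgax, which encodes CD11c, had 9.10 to 291 CPM (median 85.9) in the low class and 89.3 to 646 CPM (median 502) in the high class (log2 difference 1.88, SE 0.44, adjusted p = 0.000581, 9 of 11 libraries apart). Lgmn, a lysosomal protease, differed by 1.86 (adjusted p = 4.41e-06). With the macrophage term, Trem2 was at -0.73 (adjusted p = 0.166) and Itgax at -0.29 (adjusted p = 0.644), and 0 genes of that list were called.

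Genes of resident macrophages were less uniform: 8 of 15 were higher and 0 lower (median 0.37; 3 higher and 0 lower with the macrophage term). With the group term 5 were higher and 4 lower, the latter being Lyve1 (log2 difference -1.15), Timd4 (-1.35), Cd209d (-1.22) and Ccl24 (-1.05). Without the HFD group 4 were higher and 0 lower. Mrc1, the mannose receptor, had 50.7 to 146 CPM (median 84.4) in the low class and 73.4 to 479 CPM (median 329.9) in the high class (log2 difference 1.86, SE 0.23, adjusted p = 2.04e-07, 10 of 11 libraries apart), and Folr2, a folate receptor of perivascular macrophages, differed by 2.17 (adjusted p = 2.35e-07). Both were also called with the macrophage term (0.65 and 0.98). Of 20 cytokines and chemokines 16 were higher and 0 lower (0 higher and 0 lower with the macrophage term). Ccl2, which draws monocytes into tissue, had 2.84 to 11.2 CPM (median 4.55) in the low class and 6.87 to 43.3 CPM (median 24.8) in the high class (log2 difference 2.03, SE 0.33, adjusted p = 7.74e-06, 10 of 11 libraries apart), Tgfb1 differed by 1.24 (adjusted p = 1.33e-06), and Tnf, at a median of 2.46 CPM in the high class, by 1.66 (adjusted p = 0.000554). Of 30 lysosomal genes 28 were higher (2 higher and 0 lower with the macrophage term). All 11 genes of MHC class II presentation were higher, 6 with the group term, 2 without the HFD group, 3 in set 2 alone and 0 with the macrophage term. Among them H2-DMb1 differed by 1.45 (adjusted p = 7.83e-06) and Cd74, the invariant chain, by 1.20 (adjusted p = 9.32e-05). Of 22 interferon response genes 6 were higher and 0 lower, a share of higher genes near the background (0 higher and 0 lower with the macrophage term, 3 and 3 with the group term, 2 and 0 without the HFD group).

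T lymphocyte markers summed to 18.3 to 137 CPM of the library total in the high class (median 28.9) and 11.7 to 25.8 CPM in the low class (median 14.1). B lymphocyte and plasma cell markers summed to 175 to 4006 CPM (median 492) and to 120.5 to 546 CPM (median 203). The highest sums of the 33 libraries, 238 CPM for T and 12077 CPM for B markers, were in SZ-A 200 library 8 of the middle class. Of 14 T lymphocyte markers 12 were higher (5 with the group term, 0 without the HFD group, 0 with the macrophage term). Cd4, also found on some myeloid cells, had 0.284 to 1.25 CPM (median 0.690) in the low class and 0.770 to 14.0 CPM (median 2.25) in the high class (log2 difference 2.36, SE 0.58, adjusted p = 0.000904, 10 of 11 libraries apart). Of 13 B lymphocyte and plasma cell markers 10 were higher, and 0 with the group term, 0 with the macrophage term and 0 without the HFD group. Cd79b, of the B cell receptor, had 0.761 to 3.82 CPM (median 1.54) in the low class and 1.19 to 33.7 CPM (median 4.23) in the high class (log2 difference 1.91, SE 0.52, adjusted p = 0.00255, 6 of 11 libraries apart). Of the 10 largest fitted rises among genes averaging 1 CPM or more in the high class, with 80% of libraries on their own side of the other class's median, 8 were immunoglobulin genes. Igkv8-30, a kappa variable segment, was at 0 to 27.5 CPM (median 0.746) in the high class, highest in HFD library 7, and at 0 to 0.212 CPM in the low class. Ighg2c, a heavy chain constant gene, had 0 to 1.83 CPM (median 0.230) in the low class and 0.433 to 54.6 CPM (median 5.12) in the high class (log2 difference 4.36, SE 1.04, adjusted p = 0.000729, 8 of 11 libraries apart). It reached 227 CPM in SD library 6, outside the ranking. Such segments are near-identical copies between which the authors' counting could split reads, so their single levels are uncertain. Of 13 mast, NK and granulocyte markers 8 were higher and 0 lower (1 higher and 0 lower with the macrophage term). Cpa3 and Mcpt4, mast cell proteases, differed by 3.39 (adjusted p = 4.3e-05) and by 3.13 (adjusted p = 7e-05), and Fcer1a, of the IgE receptor, by 4.19 (adjusted p = 0.000201). Kit, the stem cell factor receptor of mast cells, had 6.51 to 13.5 CPM (median 9.40) in the low class and 9.37 to 43.3 CPM (median 18.3) in the high class (log2 difference 1.12, SE 0.18, adjusted p = 5.39e-06, 9 of 11 libraries apart) and was called with the macrophage term (1.14, adjusted p = 0.00884). Cpa3 was not called with that term (1.13, adjusted p = 0.481).

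Under the same limits, the largest fitted rise outside the immune genes was Nptx1, which encodes the secreted neuronal pentraxin 1, with 0 to 0.933 CPM (median 0.260) in the low class and 0.989 to 21.8 CPM (median 8.94) in the high class (log2 difference 4.57, SE 0.57, adjusted p = 1.81e-07, 11 of 11 libraries apart). Every high-class library lay above every low-class one, by little in SZ-A 400 library 8, and the difference was 2.89 with the macrophage term (adjusted p = 0.0112). Otop1, which encodes a proton channel expressed in brown fat, likewise separated the classes, with 0.392 to 2.01 CPM (median 1.31) in the low class and 3.24 to 11.2 CPM (median 9.55) in the high class (log2 difference 2.72, SE 0.35, adjusted p = 2.56e-07, 11 of 11 libraries apart).

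Matrix genes were higher, and part of the difference was also called beside the macrophage score. Of 36 extracellular matrix genes 30 were higher and 3 lower (median 1.11), and 18 and 0 with the macrophage term (median 0.74). Col1a1, of fibrillar collagen I, had 130.2 to 624 CPM (median 222) in the low class and 586 to 2252 CPM (median 1307) in the high class (log2 difference 2.23, SE 0.26, adjusted p = 9.81e-08, 10 of 11 libraries apart), and 1.39 with the macrophage term (adjusted p = 0.00311). Col5a2 and Col6a3, of collagens V and VI, differed by 1.53 (adjusted p = 3.8e-08) and by 1.65 (adjusted p = 9.61e-08). Of 16 preadipocyte and fibroblast markers 9 were higher and 1 lower (1 higher and 0 lower with the macrophage term, 4 and 0 without the HFD group). Fbn1, of microfibrils, had 39.5 to 143 CPM (median 82.7) in the low class and 111 to 715 CPM (median 407) in the high class (log2 difference 2.18, SE 0.28, adjusted p = 2.27e-07, 10 of 11 libraries apart), and Lum, a collagen-binding proteoglycan, had 16.2 to 115 CPM (median 30.3) in the low class and 18.2 to 353 CPM (median 259) in the high class (log2 difference 2.37, SE 0.32, adjusted p = 4.71e-07, 10 of 11 libraries apart). Of 18 endothelial markers 12 were lower and 0 higher (1 higher and 2 lower in set 2 alone, 0 higher and 0 lower with the macrophage term). Gpihbp1, which anchors lipoprotein lipase on capillaries, had 168 to 359.7 CPM (median 221) in the low class and 68.3 to 229.8 CPM (median 109.9) in the high class (log2 difference -1.07, SE 0.20, adjusted p = 4.76e-05, 9 of 11 libraries apart), and Eng, a TGF-beta co-receptor of endothelium, differed by -0.84 (adjusted p = 6.78e-05). Of 12 smooth muscle and pericyte markers 7 were lower and 1 higher (0 higher and 0 lower with the macrophage term, 0 and 0 without the HFD group), Lmod1 by -1.08 (adjusted p = 0.000214) and Cnn1 by -1.99 (adjusted p = 0.00126). Of 12 mesothelial markers edgeR called 0. The alpha globin gene Hba-a1, of red blood cells, was lower (log2 difference -1.14, adjusted p = 0.0156).

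Proliferation genes were higher: 29 of 30 cell-cycle genes were called higher and 0 lower (median 1.75), and 4 with the macrophage term. Mki67, which encodes the proliferation marker Ki-67, had 5.42 to 30.6 CPM (median 9.18) in the low class and 15.9 to 108 CPM (median 74.2) in the high class (log2 difference 2.63, SE 0.34, adjusted p = 3.14e-07, 10 of 11 libraries apart). Mcm6 and Mcm2, of the replicative helicase, differed by 1.52 (adjusted p = 3.53e-07) and by 1.62 (adjusted p = 3.74e-07), and Ccnb2, a mitotic cyclin, by 2.45 (adjusted p = 4.84e-07). Of 20 chaperones of the endoplasmic reticulum 16 were higher and 2 lower (median 0.41; 2 higher and 0 lower with the macrophage term). Hspa5, which encodes BiP, had 229 to 470.1 CPM (median 314) in the low class and 298 to 914 CPM (median 628) in the high class (log2 difference 0.83, SE 0.13, adjusted p = 4.72e-06, 10 of 11 libraries apart), and Hyou1 differed by 0.62 (adjusted p = 1.38e-06).

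Clock genes moved in both directions. Of 19 genes 12 were lower and 5 higher (1 higher and 1 lower with the macrophage term, 2 and 1 in set 2 alone). The share higher, 26.3%, was that of all genes, and the share lower was 63.2% against 28.5%. Per2, of the repressor arm, differed by -1.07 (adjusted p = 4.66e-06). Arntl and Npas2, of the activator arm, were higher, by 1.26 (adjusted p = 1.1e-05) and 1.84 (adjusted p = 9.43e-06). Arntl also differed among the labelled high-fat groups (adjusted p = 9.68e-08), and with the group as a term its class difference was 0.58 (adjusted p = 0.00111). Time of tissue collection is not given in the sources used here.

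Stress and nutrient pathways were mixed. Of 22 hypoxia targets 5 were higher and 9 lower (0 higher and 2 lower with the macrophage term). These are 22.7% and 40.9% of the list, against 26.3% higher and 28.5% lower of all genes. Vegfa, the vascular growth factor, had 205 to 1121 CPM (median 478) in the low class and 54.1 to 419.7 CPM (median 91.8) in the high class (log2 difference -1.89, SE 0.26, adjusted p = 8.85e-07, 10 of 11 libraries apart), and Bnip3, of mitophagy, differed by -1.23 (adjusted p = 3.1e-07) with no overlap. Hif1a, the factor that drives such targets, was not called (log2 difference 0.22, SE 0.10, adjusted p = 0.0635). Of 18 ATF4 pathway genes 6 were higher (33.3%) and 9 lower (50%), and 1 higher and 1 lower with the macrophage term. Asns, asparagine synthetase, had 51.6 to 121 CPM (median 83.5) in the low class and 22.7 to 50.2 CPM (median 28.7) in the high class (log2 difference -1.504, SE 0.17, adjusted p = 8.62e-08, 11 of 11 libraries apart), and Phgdh, of serine synthesis, differed by -1.27 (adjusted p = 2.61e-06). Mthfd2 and Slc7a5, targets in the same list, were higher, by 1.27 (adjusted p = 5.31e-06) and 1.27 (adjusted p = 9.65e-06). Of 20 cholesterol synthesis genes 12 were higher and 3 lower (1 higher and 1 lower with the macrophage term). Srebf2, the regulator of the pathway, differed by 0.77 (adjusted p = 3.1e-07), and Fdft1, squalene synthase, by -1.09 (adjusted p = 4.51e-07). Of 14 glucocorticoid response genes 0 were higher and 5 lower (0 higher and 0 lower with the macrophage term). The share lower was 35.7%, against 28.5% of all genes. Of 20 immediate early genes 6 were higher and 2 lower, 30.0% higher against 26.3% of all genes (1 higher and 0 lower with the macrophage term). Their counts were 6 and 6 with the group term and 3 and 6 without the HFD group, where the median went from 0.11 to -0.22. Of 18 complement genes 10 were higher and 2 lower (0 higher and 2 lower with the macrophage term). Of 14 matrix-linked TGF-beta and BMP genes 4 were higher and 5 lower (2 higher and 0 lower with the macrophage term). Their shares, 28.6% higher and 35.7% lower, were near the 26.3% and 28.5% of all genes. Of 6 erythroid markers 4 were lower, and of 5 ciliated and duct epithelium markers 1 was higher; neither list had a call with the macrophage term or without the HFD group.

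Thermogenic and browning genes, which the series title names, showed no shared direction. Of 18 tested, 7 were higher and 4 lower (1 higher and 0 lower with the macrophage term). The higher members, 38.9% of the list, were Otop1, given above, Ckb, a creatine kinase of the creatine cycle (log2 difference 1.55, adjusted p = 3.08e-05), Gk, glycerol kinase (log2 difference 0.83, adjusted p = 9.5e-05), and Slc29a1, a nucleoside transporter (log2 difference 0.69, adjusted p = 1.39e-05). The others were low in level: Dio2, the thyroid hormone deiodinase (log2 difference 2.21, adjusted p = 0.00186), Elovl3, a fatty acid elongase (log2 difference 1.89, adjusted p = 0.00359), and Tmem26, a beige fat marker (log2 difference 3.06, adjusted p = 0.000229). Ucp1, the uncoupling protein of brown fat, was at or near 0, with 0 to 0.964 CPM (median 0.143) in the low class and 0 to 0.403 CPM (median 0.182) in the high class, and was not called (log2 difference -0.77, SE 0.72, adjusted p = 0.372). Cidea, a lipid droplet protein of brown fat, and Ppargc1a, a coactivator of mitochondrial biogenesis, were lower, by -0.86 (adjusted p = 0.000684) and -0.82 (adjusted p = 0.00199), as was Ebf2, a transcription factor of brown adipocytes, by -0.91 (adjusted p = 6.4e-06), and Kcnk3, a potassium channel, by -0.61 (adjusted p = 3.32e-05). In the FGF21 and FGF1 axis 5 of 7 were lower (0 higher and 1 lower with the macrophage term), including Klb, the FGF21 co-receptor (log2 difference -1.54, adjusted p = 2.46e-06), and the growth factor gene Fgf10 (log2 difference -1.37, adjusted p = 4.01e-07). In the axis of GDF3 and its receptor ALK7, 3 of 10 genes were higher and 3 lower (0 higher and 0 lower with the macrophage term). Each is 30% of the list, near the 26.3% higher and 28.5% lower of all genes. The receptor gene Acvr1c had 87.9 to 277 CPM (median 184) in the low class and 23.7 to 218 CPM (median 45.9) in the high class (log2 difference -1.68, SE 0.25, adjusted p = 1.98e-06, 10 of 11 libraries apart). The ligand gene Gdf3 had 0.0603 to 9.68 CPM (median 2.35) in the low class and 1.98 to 25.8 CPM (median 18.5) in the high class (log2 difference 2.01, SE 0.49, adjusted p = 0.000894, 9 of 11 libraries apart), and was at -0.40 with the macrophage term (adjusted p = 0.564).

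**Figure D5:**
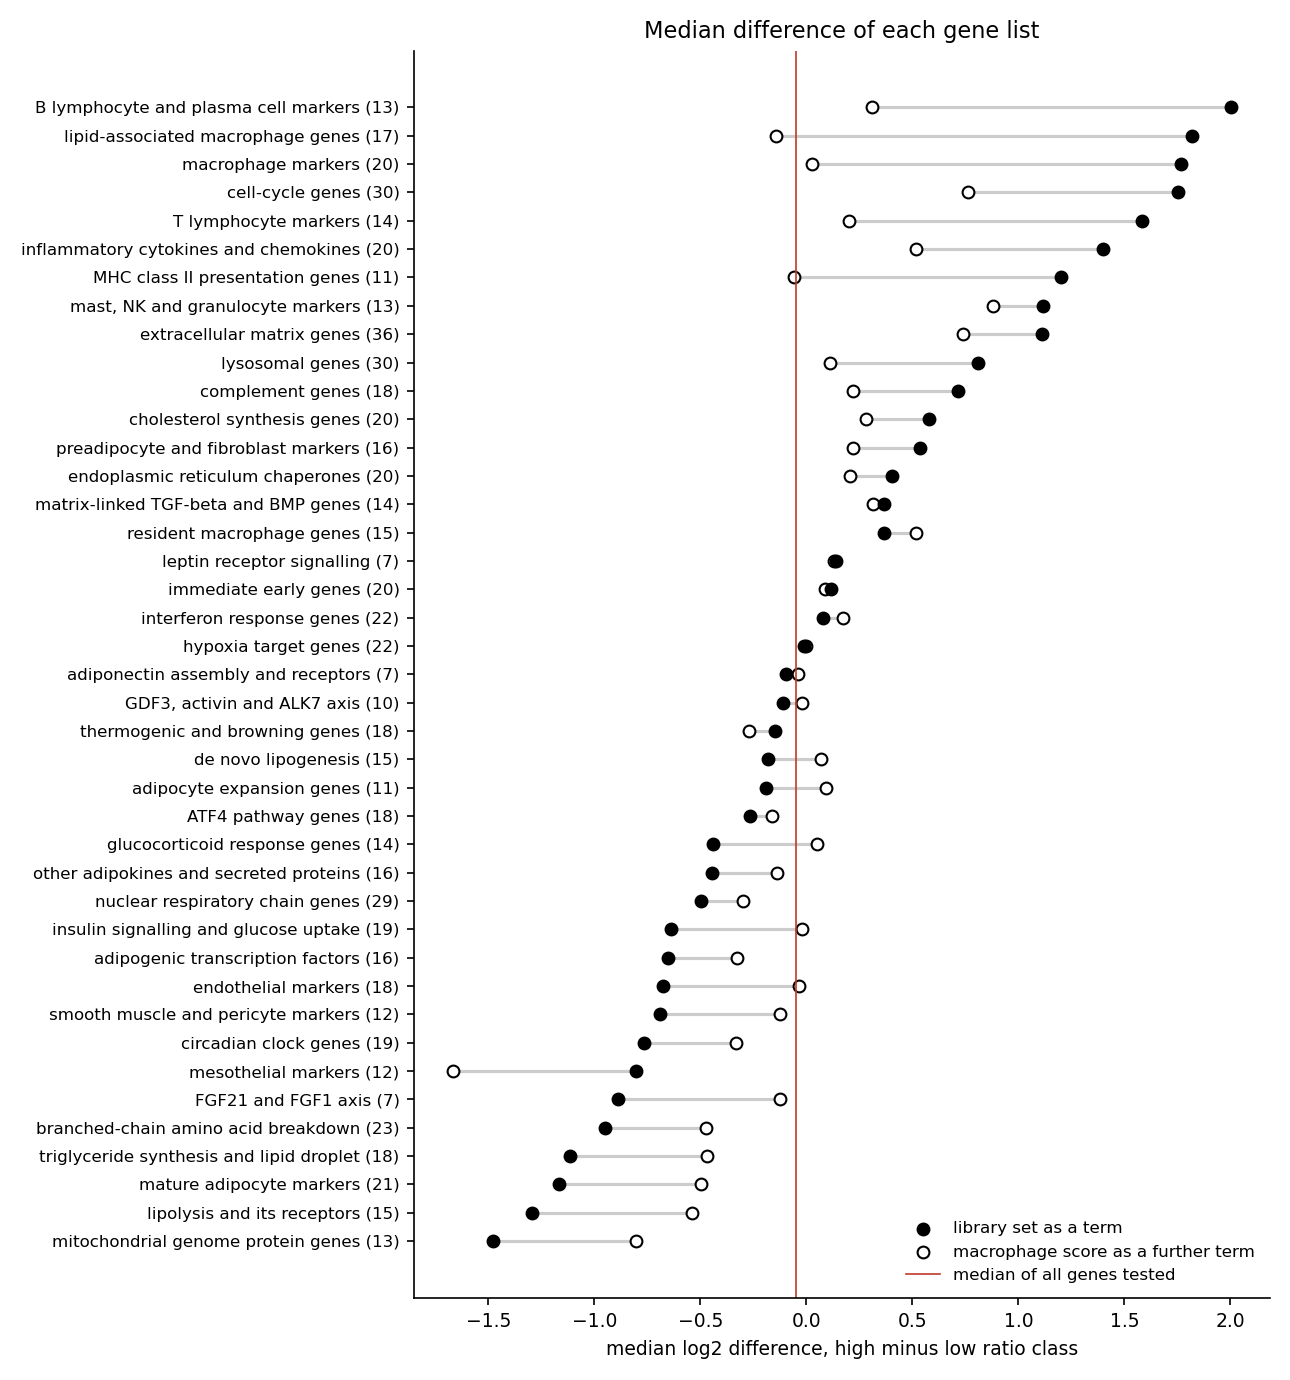
Median log2 difference, high minus low class, of each gene list (number of genes tested in brackets), with library set as a term (filled) and with the macrophage score as a further term (open). The red line is the median of all genes tested, -0.05. With the score, the median is 0.03 for the macrophage markers, which make up the score, so a small value there is fixed by the fit. It is -0.49 for the mature adipocyte markers and 0.74 for the matrix genes.

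A slope on the same ratio was also fitted in libraries outside the contrast. This ratio is the measure that ranked the libraries, and the middle libraries also add to the spread in the main fit. A shared sign of slope is thus a description and no independent test. In the 11 middle libraries, a slope on the log2 ratio was called for 1365 genes rising with it (9.41%) and 1302 falling (8.98%), of 14506 tested, and 1044 were called in all without the library set term. Of the genes called higher and lower between the classes and tested there, 94.4% and 94.1% had the same sign of slope, against 48.3% and 51.7% of all genes. As changes per log2 unit of ratio, Pck1 fell by 1.35 (adjusted p = 0.000591), Retn by 1.26 (adjusted p = 0.00137) and Adrb3 by 1.51 (adjusted p = 0.00374). Adgre1 rose by 2.04 (adjusted p = 0.00813) and Mki67 by 1.61 (adjusted p = 0.00351). Of the 23 genes of branched-chain amino acid breakdown 16 fell with the ratio, of 20 macrophage markers 11 rose, and of 36 matrix genes 10 rose and 2 fell. In the 7 SD libraries edgeR called 0 of 15043 genes (0.0%), with 3050 at an unadjusted p under 0.05, or 511 without SD library 4, in which ciliated and duct epithelium markers summed to 823 CPM. Without the library set term 282 were called, and without the filter 959. In the first SD fit 74.1% and 72.4% of the genes called between the classes had the same sign of slope, against 49.3% and 50.7% of all genes. That fit held SD library 4, and these shares were not computed without it.

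By labelled group, the genes that separated the classes spread widely within groups. Adrb3 ranged over 259 to 1147 CPM (median 1034) in SD, 30.1 to 1976 CPM (median 60.2) in HFD, 61.7 to 1026 CPM (median 164) in SZ-A 200, 56.5 to 1067 CPM (median 141) in SZ-A 400 and 214 to 865 CPM (median 302) in SZ-A 600. Pck1 ranged over 1281 to 7467 CPM (median 6430.5) in SD, 345 to 5962 CPM (median 685) in HFD, 460.1 to 6104 CPM (median 1794) in SZ-A 200, 743 to 4889 CPM (median 1769) in SZ-A 400 and 2501 to 5332 CPM (median 4098) in SZ-A 600. In both genes HFD library 8 stood within or above the SD range and SD library 4 lay below the other SD libraries. Adgre1 ranged over 14.2 to 39.2 CPM (median 19.5) in SD, 8.08 to 806 CPM (median 503) in HFD, 42.6 to 624 CPM (median 261) in SZ-A 200, 47.7 to 447 CPM (median 211) in SZ-A 400 and 41.1 to 209.6 CPM (median 97.6) in SZ-A 600, with HFD library 8 below every SD library. Vegfa ranged over 228 to 1048 CPM (median 545) in SD, 54.1 to 526 CPM (median 102) in HFD, 62.3 to 1121 CPM (median 249.5) in SZ-A 200, 56.4 to 565 CPM (median 175) in SZ-A 400 and 205 to 511 CPM (median 330.2) in SZ-A 600.

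HFD against SD, a contrast the ranking did not use, called 4354 genes higher (21.5%) and 4144 lower (20.5%) of 20221. It shares 9 HFD libraries with the classes, so the values are set side by side only. Adgre1 differed by 3.72 (adjusted p = 4.9e-05), Vegfa by -1.71 (adjusted p = 0.00133) and Pck1 by -1.83 (adjusted p = 0.00499). Retn, at -0.91, was not called (adjusted p = 0.144), nor were Slc2a4 (-0.24, adjusted p = 0.463) and Hcar1 (-0.28, adjusted p = 0.444). Sfrp5, not called between the classes, was higher on HFD by 1.42 (adjusted p = 0.000415). Of the respiratory chain list 3 of 29 genes were lower on HFD, and of the branched-chain list 12 of 23.

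Among the 4 high-fat groups, a difference was called for 1459 of 20221 genes (7.22%). Of the lists, 21 of 30 cell-cycle, 12 of 19 clock, 17 of 36 matrix and 10 of 20 chaperone genes were called, against 1 of 21 mature adipocyte, 1 of 15 lipolysis and 0 of 29 respiratory chain genes. Mki67 ranged over 5.42 to 92.8 CPM (median 73.5) in HFD and 5.69 to 30.6 CPM (median 12.3) in SZ-A 600 (adjusted p over the 4 groups = 0.0293). Col1a1 ranged over 144 to 2252 CPM (median 1244) in HFD and 130.2 to 577 CPM (median 288) in SZ-A 600 (adjusted p = 0.0407). Retn, with 67.5 to 1272 CPM (median 166) in HFD and 285 to 1156 CPM (median 718) in SZ-A 600, was not called (adjusted p = 0.608), and neither was Adrb3 (adjusted p = 0.768). Without the library set term the count was 262.

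SZ-A 400 library 8, the last of the high class, stood apart from the other 10. It had 45088 CPM of Scd1 and 1928 CPM of Pck1, the highest of the high class, and 56.4 CPM of Adgre1, 15.9 CPM of Mki67 and 442.5 CPM of Plin2, the lowest. HFD library 8 stood apart among the low class, with 12903 CPM of Cfd, 5322 CPM of Cyp2e1 and 8.08 CPM of Adgre1. Without these 2 libraries, chosen after their values were seen, 5123 genes were higher and 5681 lower.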

How the data were processed

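RNA was measured in 43 libraries of epididymal white adipose tissue, which per the labels' protocols were poly(A)-selected, strand-specific (dUTP) and read as 150-base pairs. The authors deposited a table of 56748 genes with raw read counts and FPKM values. The build is mm10 per the submitters' processing notes, and no source used here gives the aligner, the counter or the counting strand. Only 1.09% of genes share a start or end with GRCm38 as annotated in the reference, so no gene coordinates of the table are printed. The table has 0 sample columns that were not used.

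The ratio was computed from the deposited counts, which were not normalised by the authors. FPKM values, which the authors normalised for depth and gene length, were used for the ratio per length and, as log2(FPKM + 1) or log2(FPKM + 0.1) with limma 3.58.1, as alternatives to the deposited counts. Counts were filtered with filterByExpr, scaled with TMM and tested with edgeR 4.0.16 (quasi-likelihood F test, Benjamini-Hochberg adjustment, threshold 0.05) in R 4.3.3. The fit held all 33 libraries, with class and library set as terms. Depth was 32716294 to 44259619 counts per library. On simulated counts for 17997 genes with the sizes of these libraries, 55.2% of 1.5-fold, 88.1% of 2-fold and 100% of 4-fold changes between high and low class were recovered, and 13 other genes were called. The simulation changed 67, 67 and 66 genes averaging over 1 CPM. It drew genes independently, with no library set effect and no shift of the middle class. These shares do not carry over to the real contrast, where 54.8% of genes were called.

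Named genes were the 10 largest rises and 10 largest falls whose higher class averaged 1 CPM or more and which had 80% of libraries on their own side of the other class's median, plus set genes and the smallest p-values in 42 lists. These lists hold 683 symbols, of which 681 are in the table. The classes and lists were chosen with earlier results of these data known. The list of mitochondrial genome genes, Otop1, Acly, the other genes with a role given outside that rule and the promoter motifs were chosen after values or sequences were seen. Some genes that the rule names are not reported here. Alternatives were DESeq2 1.42.0, limma voom with quality weights, other scaling and filters, other library sets, other terms and each library left out in turn.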

Additional observations from a re-analysis of the deposited data

Results flagged for a closer look

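In 55 tests of a gene within a labelled group, 7 values, from 4 libraries, stood far from the others of their group, where the critical values used pass about 1 in 20 groups by chance. The tests share libraries and are not independent. SD library 4 had 1281.5 CPM of Pck1, against 4952 to 7467 CPM in the other SD libraries, and 1332.2 CPM of Col1a1, against 124 to 443 CPM. HFD library 8, of the low class, had 4587.2 CPM of Adipoq against 759.99 to 2800.1 CPM in the other 9 HFD libraries, and 1975.5 CPM of Adrb3 against 30.1 to 919 CPM. SZ-A 200 library 9, also of the low class, had 1025.8 CPM of Adrb3 against 61.7 to 473 CPM, and 1120.9 CPM of Vegfa against 62.3 to 387 CPM. SZ-A 400 library 7, with the lowest ratio, had 202.79 CPM of Lep against 1719 to 2554 CPM in the other 5.

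In the 3 libraries left out of the ranking, markers of ciliated and duct epithelium summed to 10410 CPM (SZ-A 400 library 3), 27602 CPM (SZ-A 400 library 6) and 1253.7 CPM (SZ-A 600 library 6), against 3.78 to 8.88 CPM in HFD libraries.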

How the results depend on the processing

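Counts of called genes stayed within 1.5 times of 4797 higher and 5194 lower under every alternative run but 3. They were 2410 and 1844 in library set 2 alone, 547 and 663 with the macrophage score as a term, and 2913 and 2366 with the HFD group left out. Leaving out 1 library gave 4689 to 5239 and 4649 to 5502. Same-numbered libraries of different groups had a median correlation of deviations of 0.181, over 0.1 in 43 of 68 pairs. For other-numbered libraries the median was -0.0356, over 0.1 in 207 of 567 pairs, so same-numbered libraries were more alike. The library sets follow the numbers, and this comparison does not separate number from set. The main fits held the set and did not take the numbers as pairs. With the number as a replicate block, 4353 were higher and 4783 lower. The middle slope gave 1044 genes with no library set term. The SD slope gave 282 with no set term and 959 with no filter. The difference among the high-fat groups gave 262 with no set term, 682 with the replicate block, 722 with no filter and 2813 with all 43 libraries. Without SD library 4, HFD against SD gave 4834 and 3953.

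With the macrophage score as a term, log2 differences turned sign for Plin2 (-0.069), Cdh13 (0.056), Ero1b (-0.075), Mest (0.44), Sfrp5 (0.046), Npr3 (0.35), Itgax (-0.29), Trem2 (-0.73), Gdf3 (-0.40), Dio2 (-1.13), Lyve1 (0.57), Timd4 (0.19), Cd209d (0.61), Ccl24 (0.13) and Hba-a1 (0.32). In set 2 alone Mest (0.28), Sfrp5 (0.064), Timd4 (0.0064) and Npr3 (0.38) turned, and in set 1 alone Lepr (-0.064) and Ucp1 (0.23). With the 3 left-out libraries added, Mest was 0.011, Gk -0.82 and Ucp1 0.77. With the group term Fasn was -0.20. Without HFD, Fasn was -0.037, Lepr -0.12 and Mest 0.10. Ucp1 was 0.067 with voom. The cause was not tested. Genes near 0 CPM, such as Ucp1, have differences that depth does not resolve.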
